A study of Mus musculus with 12 samples.

Results

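The genes described here make peptides for display on MHC class I molecules, load them, or tag proteins for destruction: the inducible catalytic subunits of the proteasome (Psmb8, Psmb9 and Psmb10), the inducible proteasome activator subunits (Psme1 and Psme2), the peptide transporter (Tap1 and Tap2), its partner tapasin (Tapbp), the class I light chain (B2m) and the ubiquitin-like modifier Ubd. They were chosen by name, as every probe set of the array annotated to only 1 of these 10 genes. This gave 14 probe sets of 9 genes, out of 20380 probe sets of 12393 genes. The only probe set that names Psme2 is annotated to both Psme2b and Psme2, so Psme2 was set aside.

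Liver RNA of 12 male mice was hybridised to Affymetrix MOE430A arrays, 1 array per mouse and 3 mice in each of 4 groups. Het_3M and Het_12M are heterozygous controls, with 1 disrupted copy of Mdr2, at 3 and 12 months, and KO_3M and KO_12M are Mdr2-knockout mice at the same ages. Mdr2, now named Abcb4, is the transporter that moves phospholipid into bile, and mice without it develop chronic inflammation around the bile ducts and later liver cancer. All controls thus carried the disrupted allele as well, no mouse with both copies intact was compared, and the labels do not state strain, treatment or whether a piece held tumour. Different mice were used at each age. The limma p values rest on the spread between mice within groups, pooled over all 4 groups of 3 mice. Leaving out a mouse of another group can thus change a call while the difference stays the same. In bulk liver RNA, fewer cells of a type and less RNA per cell cannot be told apart.

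The proteasome cuts proteins into peptides. Under interferon gamma, cells replace its standard catalytic subunits Psmb5, Psmb6 and Psmb7 by Psmb8, Psmb9 and Psmb10, which forms the immunoproteasome; the Psme1 and Psme2 ring opens the particle. Tap1 and Tap2 pump the peptides into the endoplasmic reticulum, where tapasin holds class I heavy chains and B2m in place to receive them. Ubd, also called FAT10, is attached to proteins as ubiquitin is and sends them to the proteasome, and it is induced in inflamed liver.

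Each value below is a MAS 5.0 signal, a brightness on a linear scale that the authors had brought to a common array mean. Fold changes are log2 differences of signal + 16 with a limma standard error, and a gene was called at a limma adjusted p under 0.05 over 8217 tested genes. The offset of 16 makes the fold change of a dim gene smaller than its ratio of signals. Abcb4, the targeted gene, averaged 321 in KO_3M against 723 in Het_3M, and 290 in KO_12M against 623 in Het_12M. Log2 signals of all genes correlated with r of 0.939 to 0.971 between arrays of 1 group and 0.895 to 0.969 between groups. For mouse 1 of both Het_3M and KO_3M, the source label reads 12 months, against 3 months in title and age field, which were followed. The arrays were scanned in 3 sessions, and 0 of them held both genotypes at 1 age. Knockout effects with the session as a block therefore rest on links through the other groups, and they are given beside the members' called effects. Session 3 held all 3 KO_3M arrays and was tied to the others only by KO_12M mouse 3. Session 1 held all 3 Het_12M arrays and was tied only by Het_3M mouse 1. Blocked effects at 3 months thus hang on the former array, and those at 12 months on the latter. The blocked difference between the knockout ages is KO_12M mouse 3 against the 3 KO_3M mice. The actin control's 3' to 5' ratio, a measure of RNA integrity, was 7.0 ± 1.64 (SD, n = 3) for Het_3M, 4.92 ± 1.59 for KO_3M, 3.64 ± 0.56 for Het_12M and 2.79 ± 0.44 for KO_12M. Its part in the results was not tested beyond a fit with it as a covariate.

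At 3 months the knockout livers held more of nearly the whole set. In KO_3M against Het_3M, 8 of the 9 member genes rose and none fell, where 9.89% of all tested genes were called higher. Only B2m did not pass, and Tap1 is counted by 1 of its probe sets, 2 others of which fell. The median log2 fold change of the 9 members was 1.19, against -0.06 for all tested genes. This median is the value of Tap1 by probe set 1416016_at, and the direction of Tap1 depends on the probe set. Tap1, Tap2 and Ubd were bright enough to be tested only through knockout arrays. This favours a higher median, and their calls add nothing to the count of 8. Of the 6 members that needed no knockout array, 5 were called. When the session was a block 2 of the 9 members were called, against 2.30% of tested genes called higher, and with the actin ratio as a covariate 5. On all 9 members the 3 KO_3M arrays lay above the 3 Het_3M arrays, a pattern found in 16.8% of tested genes. Of these 9 members, 6 needed no knockout array. The mean signal was at least 2-fold higher for 3 of the 6 members that needed no knockout array, against 5.01% of tested genes, and for Tap1, Tap2 and Ubd.

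At 12 months fewer members were called. In KO_12M against Het_12M, Ubd, Psmb8 and Psmb9 rose and the other 6 members did not pass the test, where 6.39% of all tested genes were called higher. Of the 6 members tested without help from knockout arrays, 2 were called. By limma 0 of the 9 were called with the session as a block (3 at an unadjusted p under 0.05), where 0.913% of tested genes were called higher, and with the actin ratio as a covariate 2. The members' median was 0.31, again the value of Tap1 by 1416016_at, against -0.00 for all tested genes. This median also takes in Tap1, Tap2 and Ubd, which were tested only through knockout arrays. For 5 members the 3 KO_12M arrays lay above the 3 Het_12M arrays, as in 15.2% of tested genes. For 2 members the mean signal was at least 2-fold higher, as in 4.14%. Among the 6 members tested without help from knockout arrays, 3 lay apart in this way and 1 was at least 2-fold higher. In the knockout mice themselves, 7 of the 9 members were lower at 12 than at 3 months, where 3.81% of tested genes were called lower. The members' median was -0.79, also the value of Tap1 by 1416016_at, against 0.08 for all tested genes. Tap1, Tap2 and Ubd had to be bright in knockout arrays to be tested, which favours a fall from the brighter age; of the other 6 members 5 were called lower, and for 2 of these 6 the mean signal was at least 2-fold lower. For 7 members the 3 KO_12M arrays lay under the 3 KO_3M arrays (10.9% of tested genes), and for 4 the mean signal was at least 2-fold lower (1.03%). Among the 6 members that needed no knockout array, 5 lay under in this way. Blocked by session, this comparison was KO_12M mouse 3 against the 3 KO_3M mice, so no count of calls is given. With the actin ratio as a covariate 0 of these 7 calls passed limma, with an unadjusted p under 0.05 for all 9 members. Between the heterozygous ages no member was called by limma, where 0.353% of tested genes were called lower and 0.329% higher; the fold changes ran from -0.96 to 0.31, and 1 member had an unadjusted p under 0.05. These comparisons share arrays: Het_3M and KO_3M each enter more than 1 of them.

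**Figure D1:**
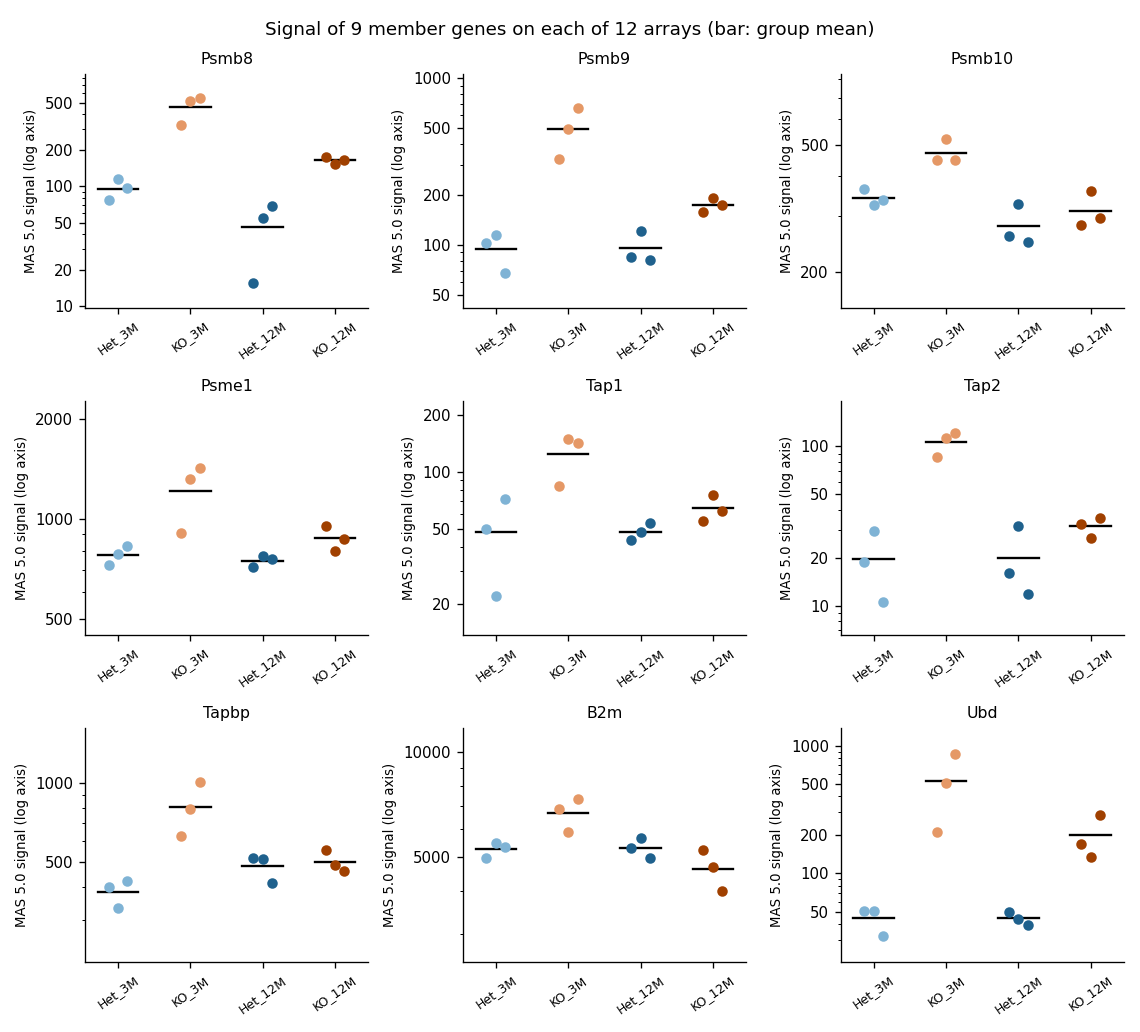
MAS 5.0 signal (log axis, a scale per gene) of the probe set that represents each of the 9 member genes, on each of the 12 arrays; points are mice and bars are means of 3 mice. KO_3M lies above Het_3M for every gene plotted, while at 12 months the groups are apart for Psmb8, Psmb9, Psme1, Tap1 and Ubd and overlap for the other 4.

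Psmb8 and Psmb9 carry 2 of the 3 inducible catalytic sites. Psmb8, which takes the place of Psmb5, gave signals of 77.0, 114.8 and 96.3 on the Het_3M arrays and 324.6, 514.7 and 547.3 on the KO_3M arrays. Its 12-month signals were 15.6, 54.0 and 68.4 for Het_12M and 176.3, 155.4 and 166.6 for KO_12M. The lowest knockout array was above the highest heterozygous array at each age, and mouse 1 of Het_12M stood well under its group. Psmb8 was 4.81-fold higher in mean signal at 3 months (462 ± 120 against 96.0 ± 18.9, SD, n = 3) and 3.61-fold higher at 12 months (166 ± 10.5 against 46.0 ± 27.3). On the log2 scale these were rises of 2.07 ± 0.28 (adjusted p = 8.24e-05) and 1.67 ± 0.28 (adjusted p = 0.000859). With the session as a block they were 1.94 and 1.29, and neither passed (adjusted p = 0.0669 and 0.350). From KO_3M to KO_12M Psmb8 fell by 1.36 ± 0.28 (adjusted p = 0.0100; blocked -1.35, adjusted p = 0.0646). All 3 Het_12M arrays also lay under the Het_3M arrays, as in 10.7% of tested genes, with a log2 difference of -0.96 ± 0.28 that did not pass (adjusted p = 0.117). Without mouse 1 of Het_12M that difference was -0.53 (adjusted p = 0.384).

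Psmb9, the counterpart of Psmb6, gave 103.1, 113.8 and 67.3 on the Het_3M arrays and 327.6, 495.8 and 663.4 on the KO_3M arrays. Its 12-month signals were 84.3, 120.6 and 81.3 for Het_12M and 157.8, 190.0 and 172.2 for KO_12M. The genotypes did not overlap at either age, and the 3 KO_12M arrays lay under every KO_3M array. The rise was 2.18 ± 0.22 at 3 months (5.23-fold in mean signal, adjusted p = 5.71e-06) and 0.78 ± 0.22 at 12 months (1.82-fold, adjusted p = 0.0326). Psmb9 kept its 3-month call with the session as a block (2.25, adjusted p = 0.0140), and lost the 12-month call (0.98, adjusted p = 0.389). The 12-month call was also lost without any 1 of 5 arrays: Het_12M mouse 1 (0.71, adjusted p = 0.108) or mouse 3 (0.69, adjusted p = 0.114), and KO_12M mouse 1 (0.84, adjusted p = 0.0525), mouse 2 (0.72, adjusted p = 0.0956) or mouse 3 (0.78, adjusted p = 0.0783). Psmb9 fell by 1.38 ± 0.22 from KO_3M to KO_12M (adjusted p = 0.00294). Blocked by session the difference was -1.39, which is KO_12M mouse 3 against the 3 KO_3M mice.

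Psmb10, the counterpart of Psmb7, moved far less. Its signal was 362.6, 325.0 and 336.8 in Het_3M and 448.8, 519.9 and 446.3 in KO_3M, then 259.2, 326.5 and 248.8 in Het_12M and 280.0, 359.3 and 295.7 in KO_12M. The genotypes were apart at 3 months and overlapped at 12 months. The rise at 3 months was 0.45 ± 0.14 (1.38-fold, adjusted p = 0.0288), and the 12-month difference of 0.16 did not pass (adjusted p = 0.528). The 3-month call was lost with the session as a block (0.58, adjusted p = 0.225), with the actin ratio as a covariate (0.37, adjusted p = 0.143), and without mouse 2 (0.41, adjusted p = 0.0881) or mouse 3 (0.44, adjusted p = 0.0748) of Het_3M or mouse 2 of KO_3M (0.38, adjusted p = 0.109). From KO_3M to KO_12M Psmb10 fell by 0.58 ± 0.14 (adjusted p = 0.0180). That call was lost with the block (-0.64, adjusted p = 0.0737) and without KO_3M mouse 2 (-0.51, adjusted p = 0.0556), KO_12M mouse 1 (-0.51, adjusted p = 0.0653) or KO_12M mouse 3 (-0.55, adjusted p = 0.0565).

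The standard subunits that these genes replace did not pass the test at either age. Psmb5 differed by 0.15 ± 0.12 at 3 months and 0.23 ± 0.12 at 12 months, Psmb6 by -0.17 ± 0.13 and -0.28 ± 0.13, and Psmb7 by 0.27 ± 0.13 and -0.07 ± 0.13. The lowest of these 6 adjusted p values was 0.161. The difference between each inducible subunit and its counterpart was then tested with an exact permutation test, two-sided, of the genotype within each age (400 arrangements, smallest p possible 0.005). At each age the genotypes were scanned in different sessions, which this test does not take into account, so session and genotype cannot be told apart in it. Averaged over both ages, Psmb8 rose by 1.68 more than Psmb5 (exact p = 0.005, 0.0075 adjusted over the 3 pairs) and Psmb9 by 1.70 more than Psmb6 (exact p = 0.005, adjusted 0.0075). For Psmb8 the excess was 1.93 at 3 months and 1.44 at 12 months, and for Psmb9 it was 2.35 and 1.06. In both pairs all 6 knockout arrays lay above every heterozygous array of the same age. Psmb10 rose by 0.20 more than Psmb7 (0.18 at 3 and 0.23 at 12 months, exact p = 0.035, adjusted 0.035), and at 12 months the arrays overlapped. From the fit with the session as a block the excess at 3 and 12 months was 1.67 and 0.85 for Psmb8, 2.12 and 1.01 for Psmb9 and 0.03 and 0.29 for Psmb10, values with no test. Without 1 array the Psmb10 excess of 0.20, averaged over both ages with no session block, ran from 0.17 to 0.27. Its exact test was lost without mouse 3 of Het_3M (0.17, exact p = 0.060), KO_3M (0.18, exact p = 0.070), Het_12M (0.19, exact p = 0.070) or KO_12M (0.17, exact p = 0.060). It was also lost without mouse 1 of Het_12M (0.19, exact p = 0.070) or mouse 2 of KO_12M (0.17, exact p = 0.060). These are differences of change, and say nothing of which subunit was more abundant.

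**Figure D2:**
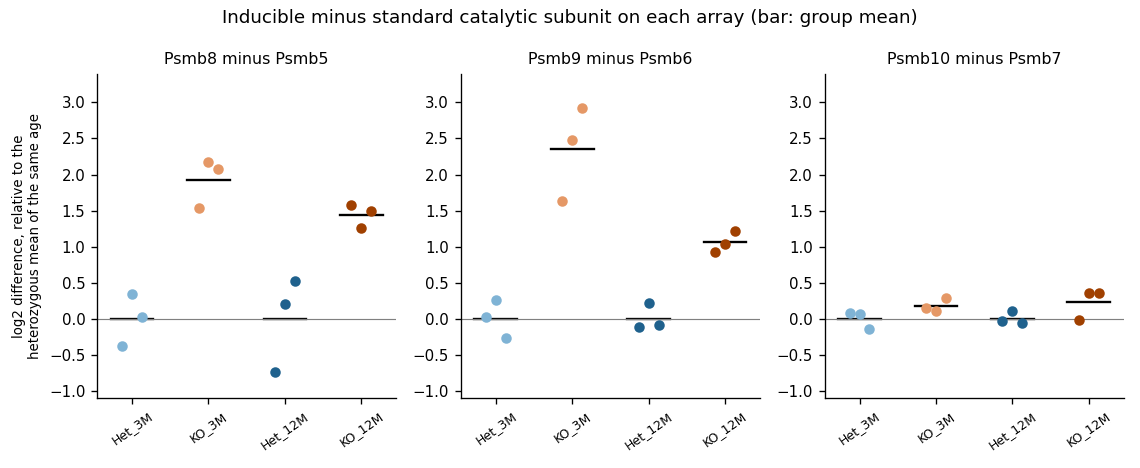
Log2 signal of each inducible subunit minus that of the standard subunit it replaces, set to 0 at the heterozygous mean of the same age; points are mice and bars are means of 3 mice. The knockout means are 1.93 and 1.44 for Psmb8 minus Psmb5, 2.35 and 1.06 for Psmb9 minus Psmb6, and 0.18 and 0.23 for Psmb10 minus Psmb7 at 3 and 12 months.

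Psme1 is a subunit of the ring that opens the proteasome. Its signal was 723.7, 785.3 and 825.4 in Het_3M and 908.6, 1322.1 and 1418.2 in KO_3M, then 715.2, 771.9 and 755.5 in Het_12M and 952.9, 798.3 and 871.0 in KO_12M. The genotypes did not overlap at either age. The rise at 3 months was 0.61 ± 0.15 (1.56-fold, adjusted p = 0.00781; blocked 0.56, adjusted p = 0.276), and it was lost with the actin ratio as a covariate (0.49, adjusted p = 0.0688). The 12-month difference of 0.22 ± 0.15 did not pass (adjusted p = 0.394). Psme1 did not pass between the knockout ages (-0.45 ± 0.15, adjusted p = 0.0645), and passed without mouse 1 of KO_3M (-0.64, adjusted p = 0.0145). For Psme3, a nuclear activator of the same family, neither the 3-month difference of 0.44 ± 0.37 (adjusted p = 0.420) nor the 12-month difference of 0.08 (adjusted p = 0.927) passed. Its other probe sets went the other way at 3 months. Probe set 1418079_at differed by -0.10 ± 0.16 (adjusted p = 0.695 over probe sets). Probe set 1438509_at, too dim to be tested, averaged 16.9 in KO_3M against 68.7 in Het_3M, without overlap.

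Psmb9, Tap1, Psmb8 and Tap2 stand next to each other on chromosome 17, inside the MHC. Psmb9 and Tap1 are read in opposite directions from neighbouring starts. The stretch between those starts is shown because Psmb9 and the Tap1 probe set 1416016_at rose at 3 months, while 2 other Tap1 probe sets fell, together with the stretches before Psmb8, Ubd and B2m, the members in whose 250 bases a searched motif was found. The sequences are from RefSeq, build GRCm38.p6, plus strand, 5′ to 3′, and capitals mark motif matches.
Psmb9 to Tap1, chr17:34187331-34187555: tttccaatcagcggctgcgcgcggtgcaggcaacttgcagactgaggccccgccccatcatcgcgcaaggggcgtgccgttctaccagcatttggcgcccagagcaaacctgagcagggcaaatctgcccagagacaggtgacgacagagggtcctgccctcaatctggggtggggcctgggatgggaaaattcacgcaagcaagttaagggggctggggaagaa
Psmb8, chr17:34197945-34198194: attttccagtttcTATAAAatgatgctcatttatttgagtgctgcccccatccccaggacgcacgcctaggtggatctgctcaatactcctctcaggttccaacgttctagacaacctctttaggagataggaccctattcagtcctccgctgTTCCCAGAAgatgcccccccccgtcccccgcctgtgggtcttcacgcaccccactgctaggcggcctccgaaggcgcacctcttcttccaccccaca
Ubd, chr17:37193642-37193891: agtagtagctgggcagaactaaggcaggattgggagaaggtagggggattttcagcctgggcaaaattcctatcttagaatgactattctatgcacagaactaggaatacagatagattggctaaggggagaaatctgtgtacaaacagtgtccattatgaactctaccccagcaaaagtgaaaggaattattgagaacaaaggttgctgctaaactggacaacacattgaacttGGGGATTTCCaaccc
B2m, chr2:122147437-122147686: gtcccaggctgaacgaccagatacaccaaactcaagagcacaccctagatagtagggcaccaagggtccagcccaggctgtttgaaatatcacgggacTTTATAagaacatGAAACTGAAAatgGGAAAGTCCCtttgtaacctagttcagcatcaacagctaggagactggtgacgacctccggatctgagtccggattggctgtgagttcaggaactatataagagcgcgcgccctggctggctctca

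A total of 4 motifs were searched on both strands of the 250 bases before the start, in 32851 windows of RefSeq genes: the interferon-stimulated response element as GAAA, any 2 bases, GAAA, the gamma-activated site as TTC, any 3 bases, GAA, the NF-kappaB site as GGG, any 2 bases, TTTCC and the TATA box as TATAAA. Of the 10 named genes 9 had a window, Psme2 among them, and Tap2 had none. Psmb8 held a gamma-activated site, TTCCCAGAA, 97 to 89 bases before its start, a motif found in 7.02% of all windows. Ubd held an NF-kappaB site, GGGGATTTCC, 15 to 6 bases before its start, as 1.41% of windows do. B2m held an interferon-stimulated response element, GAAACTGAAA, 139 to 130 bases before its start (2.98% of windows), and an NF-kappaB site on the minus strand, GGAAAGTCCC, at 126 to 117 bases. TATA box letters were present in Psmb8 and, on the minus strand, in B2m (12.4% of windows). No motif overlapped another in these windows, and none of the 4 was found in the windows of Psmb9, Tap1, Psmb10, Psme1, Psme2 or Tapbp. A match is a run of letters and does not show that a factor binds there. Only these letters within 250 bases were searched, so a gene without a match may still hold a site of other letters or further away.

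Tap2, which forms the transporter together with Tap1, was dim outside KO_3M. Its signal was 18.9, 29.3 and 10.5 in Het_3M and 85.6, 112.4 and 120.8 in KO_3M, then 16, 31.7 and 11.8 in Het_12M and 32.6, 26.6 and 35.7 in KO_12M. Only the 3 KO_3M arrays reached the median of their array, so Tap2 was tested only because of the group in which it was high. The difference was 1.80 ± 0.31 at 3 months (adjusted p = 0.000613; blocked 1.62, adjusted p = 0.134) and 0.44 ± 0.31 at 12 months (adjusted p = 0.403). From KO_3M to KO_12M Tap2 fell by 1.35 ± 0.31 (adjusted p = 0.0143), a call that was lost with the block (-1.23, adjusted p = 0.106) and without mouse 3 of KO_3M (-1.27, adjusted p = 0.0554).

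Tap1 was read by 4 probe sets that did not move together. The probe set used for the gene, 1416016_at, gave 49.9, 22 and 71.6 in Het_3M and 84.6, 148.5 and 142.0 in KO_3M, then 43.7, 47.9 and 53.4 in Het_12M and 55.1, 75.5 and 62.1 in KO_12M. The genotypes did not overlap at either age. It rose by 1.19 ± 0.28 at 3 months (2.61-fold, adjusted p = 0.00605; blocked 1.30, adjusted p = 0.179), a call lost with the actin ratio as a covariate (0.79, adjusted p = 0.0866). It did not pass at 12 months (0.31 ± 0.28, adjusted p = 0.529) or between the knockout ages (-0.79 ± 0.28, adjusted p = 0.0773). Between the knockout ages it passed with arrays scaled to their medians (-1.07, adjusted p = 0.0113) and without mouse 2 of Het_3M (-0.79, adjusted p = 0.0412).

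A second Tap1 probe set, 1449803_x_at, went the other way. It gave 102.7, 99.0 and 88.7 in Het_3M and 4.5, 9.9 and 5.7 in KO_3M, then 124.8, 117.5 and 130 in Het_12M and 57.5, 82.0 and 110.1 in KO_12M. In a fit of all 11881 tested probe sets it fell by 2.32 ± 0.22 at 3 months (adjusted p = 3.31e-06), and rose by 2.10 ± 0.22 from KO_3M to KO_12M (adjusted p = 0.000159). Its KO_3M signals lay near the 10th percentile of those arrays, which was 4.1 to 4.8, so the size of these changes depends on the offset. The third, 1420274_at, gave 97.9, 34.7 and 73.4 in Het_3M, 10.3, 2.3 and 18.1 in KO_3M, 54.9, 37.5 and 90.6 in Het_12M and 29.8, 25.3 and 107.3 in KO_12M. It fell by 1.66 ± 0.43 at 3 months (adjusted p = 0.0120). The fourth, 1448177_at, lay between 2.1 and 8.9 on all arrays and was too dim to test. The suffix _x_at marks a probe set some of whose probes can match other sequences. The direction of Tap1 as a gene thus depends on the probe set: with an offset of 64, which makes 1449803_x_at the brightest, Tap1 was -1.19 at 3 months (adjusted p = 1.1e-05), and as the mean of its probe sets it was -0.76 (adjusted p = 0.0113).

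**Figure D3:**
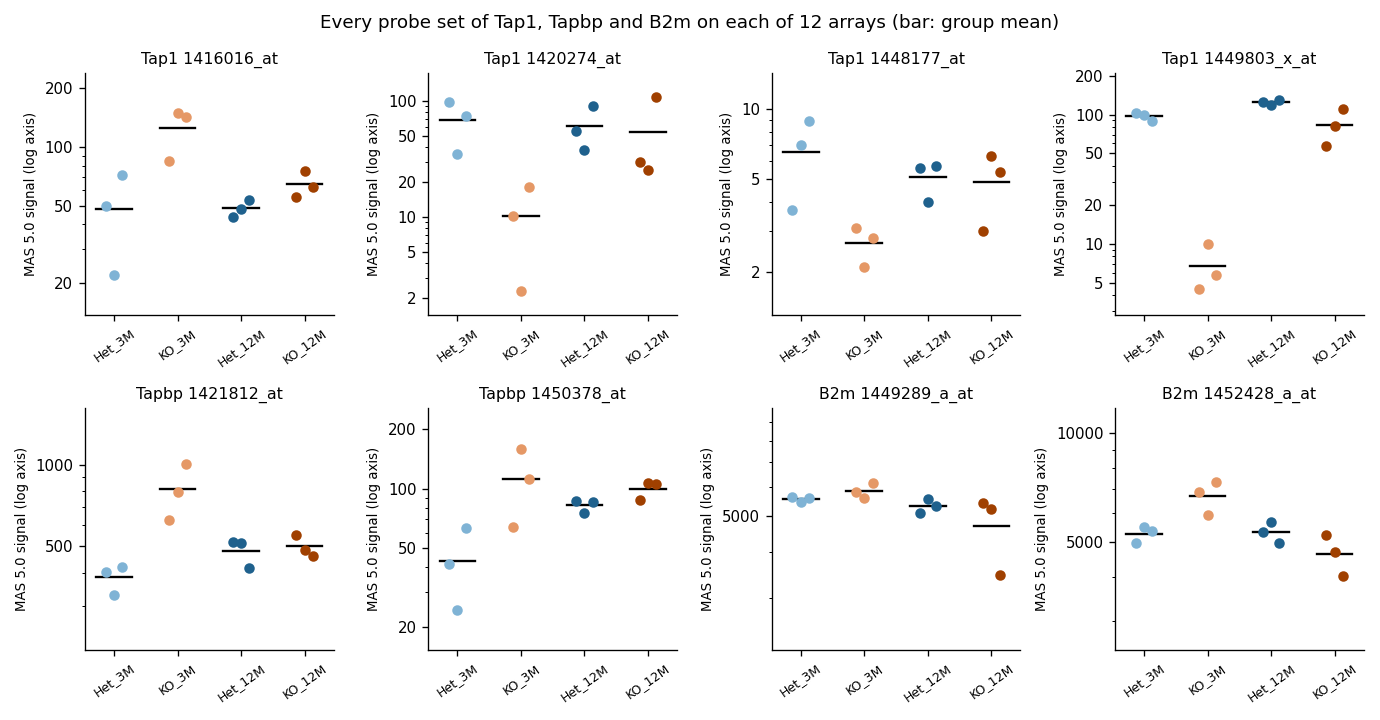
MAS 5.0 signal (log axis, a scale per panel) of every probe set of the members that have more than 1: 4 of Tap1, 2 of Tapbp and 2 of B2m, on each of the 12 arrays; points are mice and bars are means of 3 mice. Of the Tap1 probe sets, 1416016_at is higher in KO_3M than in Het_3M 1420274_at and 1449803_x_at are lower and 1448177_at is too dim to read, whereas both Tapbp probe sets are higher.

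Over all probe sets of the members, 9 of the 13 tested were called higher in KO_3M, where 9.69% of tested probe sets were, and 2 were called lower, where 11.8% were. Both that were lower belong to Tap1. At 12 months 3 of the 13 were called higher, where 5.99% were. Ubd, tested only through knockout arrays, was among these 3.

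Tapbp encodes tapasin, the bridge between the transporter and class I molecules. Its brighter probe set gave 401.7, 331.9 and 420.8 in Het_3M and 626.7, 795.5 and 1009.6 in KO_3M, then 517.2, 512.4 and 415.6 in Het_12M and 552.9, 486.3 and 461.4 in KO_12M. The genotypes were apart at 3 months and overlapped at 12 months. The rise at 3 months was 1.03 ± 0.16 (2.11-fold, adjusted p = 0.000336), and it held with the session as a block (1.22, adjusted p = 0.0497). The dimmer probe set, with 41.4, 24.5 and 63.0 in Het_3M and 63.7, 159.3 and 111.6 in KO_3M, rose by 1.09 ± 0.27 (adjusted p = 0.00935 over probe sets). At 12 months Tapbp differed by 0.06 (adjusted p = 0.878), or by -0.03 with arrays scaled to their medians. From KO_3M to KO_12M it fell by 0.66 ± 0.16 (adjusted p = 0.0206). That call was lost with the block (-0.77, adjusted p = 0.0700) and without mouse 3 of KO_3M (-0.49, adjusted p = 0.0738) or of KO_12M (-0.60, adjusted p = 0.0697).

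B2m, the light chain of every class I molecule, did not pass at 3 months. The probe set used for the gene gave 4970.5, 5478.2 and 5345.6 in Het_3M and 6876.4, 5918.8 and 7332.7 in KO_3M, then 5305.3, 5675.6 and 4969.1 in Het_12M and 5231.5, 4668.5 and 4001.8 in KO_12M. KO_3M lay above Het_3M without overlap, and the difference of 0.34 ± 0.13 did not pass (1.27-fold, adjusted p = 0.0684; blocked 0.61, adjusted p = 0.104). It passed with quantile normalization (0.35, adjusted p = 0.00945), with arrays scaled to their medians (0.53, adjusted p = 0.0338), with only the 2 groups in the fit (0.34, adjusted p = 0.0473) and without mouse 3 of KO_12M (0.34, adjusted p = 0.0259). The other probe set, from 5473.9 to 5615.8 in Het_3M and from 5609.8 to 6132.3 in KO_3M, differed by 0.07 ± 0.15 (adjusted p = 0.774 over probe sets). At 12 months B2m differed by -0.20 (adjusted p = 0.367), or by 0.10 with quantile normalization. From KO_3M to KO_12M it fell by 0.54 ± 0.13 (adjusted p = 0.0199). Blocked by session the difference was -0.74, which is KO_12M mouse 3 against the 3 KO_3M mice. The unblocked call was lost with quantile normalization (-0.12, adjusted p = 0.445) and without mouse 1 (-0.51, adjusted p = 0.0623) or mouse 3 (-0.47, adjusted p = 0.0695) of KO_3M. KO_12M mouse 3 gave the lowest signal of both probe sets, and the brightest probe set on its array reached 6328, against at least 9470 on the other 11; the part of this in B2m was not tested.

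Ubd, the ubiquitin-like modifier, rose at both ages. It gave 51.1, 51.1 and 32.4 in Het_3M and 210.7, 507.1 and 859.5 in KO_3M. Its 12-month signals were 49.4, 44.3 and 39.3 for Het_12M and 169.4, 135.5 and 288.9 for KO_12M. All 6 heterozygous arrays were at or under 51.1 and all 6 knockout arrays at or above 135.5, and the KO_3M mice spread more widely than any other group. Ubd passed the brightness filter only through the 6 knockout arrays. Mean signals were 11.7-fold higher in KO_3M (526 ± 325 against 44.9 ± 10.8, SD, n = 3) and 4.46-fold higher in KO_12M (198 ± 80.6 against 44.3 ± 5.05). The log2 rises were 2.97 ± 0.35 (adjusted p = 2.72e-05; blocked 2.18, adjusted p = 0.0725) and 1.77 ± 0.35 (adjusted p = 0.00332; blocked 1.71, adjusted p = 0.257). Between the knockout ages Ubd fell by 1.20 ± 0.35 (adjusted p = 0.0421), although KO_3M mouse 1 lay within the KO_12M range. That call was lost with the block (-0.62, adjusted p = 0.435) and without any 1 of 7 arrays. These were KO_3M mouse 2 (-1.12, adjusted p = 0.0946) and mouse 3 (-0.75, adjusted p = 0.162), KO_12M mouse 1 (-1.13, adjusted p = 0.103) and mouse 2 (-0.98, adjusted p = 0.113), and Het_3M mouse 1 (-1.20, adjusted p = 0.0504), Het_12M mouse 2 (-1.20, adjusted p = 0.0535) and Het_12M mouse 3 (-1.20, adjusted p = 0.0530).

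**Figure D4:**
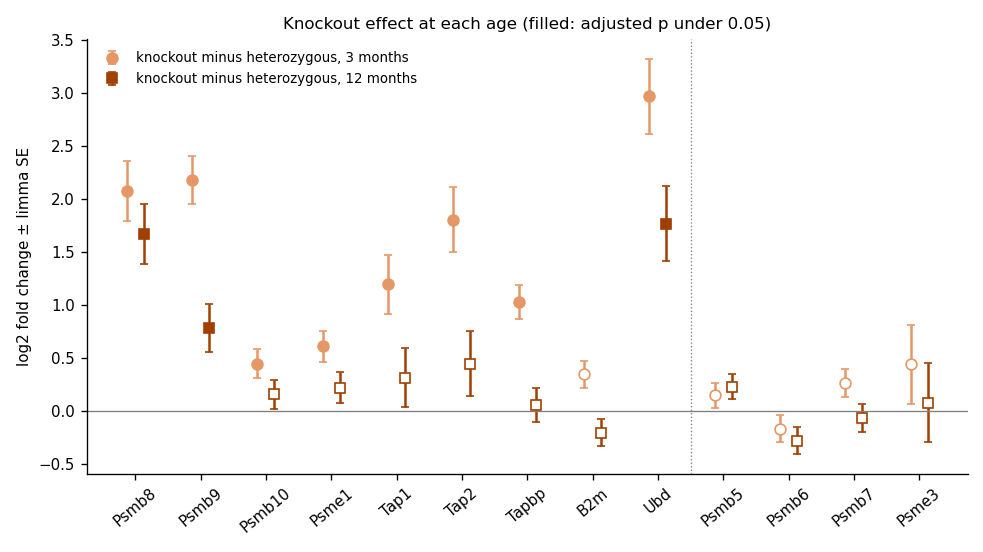
Knockout minus heterozygous log2 fold change ± limma standard error at 3 months (circles) and 12 months (squares) for the 9 members and, right of the dotted line, the standard counterparts Psmb5, Psmb6, Psmb7 and Psme3; filled marks passed the test. At 3 months 8 members are filled, from 0.45 (Psmb10) to 2.97 (Ubd); at 12 months only Psmb8, Psmb9 and Ubd are.

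The knockout effect was smaller at 12 than at 3 months for all 9 members, by -0.29 to -1.40 on the log2 scale, with Tap1 read by 1416016_at. The median of this difference over all tested genes was 0.06. Tap1, Tap2 and Ubd were tested only through knockout arrays, for Tap2 only those of KO_3M, which favours a smaller effect at 12 months. The difference of effects was tested as an interaction. Psmb9 passed (-1.40 ± 0.32, adjusted p = 0.0456), where 0.462% of tested genes were called lower. Its call was lost when any 1 of the 12 arrays other than KO_3M mouse 1 was left out (-1.17 to -1.53, adjusted p from 0.0589 to 0.117), and with the session as a block (-1.27, adjusted p = 0.226). Tapbp (-0.97 ± 0.23, adjusted p = 0.0515), Tap2 (-1.36 ± 0.43, adjusted p = 0.135), B2m (-0.55 ± 0.18, adjusted p = 0.159) and Ubd (-1.20 ± 0.50, adjusted p = 0.240) did not pass. Nor did Tap1 (-0.88 ± 0.39, adjusted p = 0.275), Psme1 (-0.39 ± 0.21, adjusted p = 0.373), Psmb10 (-0.29 ± 0.20, adjusted p = 0.496) or Psmb8 (-0.40 ± 0.40, adjusted p = 0.660). Of the 9 members 6 had an unadjusted p under 0.05. Without mouse 1 of KO_3M, which was the lowest of its group for 7 of the 9 members, Tapbp (-1.14, adjusted p = 0.0257) and Ubd (-1.73, adjusted p = 0.0438) passed as well as Psmb9.

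Within the third session, where the single KO_12M mouse was scanned beside the 3 KO_3M mice, all 9 members were lower in the KO_12M mouse, by -0.45 to -1.39, with a median of -0.77. That array, KO_12M mouse 3, stood apart from the other 11: its highest signal was the lowest of all, 6328, its 10th percentile was 9.4 against 4.1 to 6.5, and it was washed under another script, as was KO_3M mouse 1. Of all tested genes 40.8% were lower there, and the median was 0.11. Within the first session the 3 Het_12M mice against 1 Het_3M mouse gave 3 members higher and 6 lower, with a median of -0.04. Within the second, 2 KO_12M mice against 2 Het_3M mice, which differ in both genotype and age, gave 7 members higher with a median of 0.46, where 52.2% of tested genes were higher. With the session as a block over all arrays, 2 members were called at 3 months (Psmb9 and Tapbp) and 0 at 12 months. Limma's unadjusted p was under 0.05 for 8 and 3 members. The blocked 3-month effects depend on KO_12M mouse 3, which alone ties the third session to the others. Between the knockout ages the blocked differences are those of the third session, not a separate result.

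The neighbours of the 4 genes on chromosome 17 belong to the class II part of the MHC and did not all move with them. H2-DMa, which helps load class II molecules, rose at 3 months (1.04 ± 0.24, adjusted p = 0.00630) and 12 months (1.33 ± 0.24, adjusted p = 0.00157). H2-Ab1, a class II chain, rose by 1.01 ± 0.24 (adjusted p = 0.00777) and 0.92 ± 0.24 (adjusted p = 0.0203), and its partner H2-Aa by 0.58 ± 0.13 (adjusted p = 0.00561) and 0.83 ± 0.13 (adjusted p = 0.000559). H2-Eb1 did not pass at either age (0.46 and 0.37), nor did Brd2, a chromatin reader (-0.31 and 0.02). H2-DMb2, a close copy of H2-DMb1, fell at 3 months (-0.94 ± 0.25, adjusted p = 0.0133). These were taken as the 5 genes on each side of the 4 in the RefSeq order of GRCm38.p6, and the remaining 4 were not tested. None of the 6 tested neighbours passed limma with the session as a block (lowest adjusted p = 0.0785, H2-Ab1 at 3 months), with an unadjusted p under 0.05 for 2 at 3 months and 3 at 12 months.

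Of 7 tested class I heavy chains and class I-like genes, 2 rose at 3 months: H2-K1 (0.84 ± 0.13, adjusted p = 0.000231) and H2-D1 (0.79 ± 0.15, adjusted p = 0.00166), the classical heavy chains that pair with B2m. Blocked by session they were 1.14 (adjusted p = 0.00838) and 1.35 (adjusted p = 0.00224). The share of all tested genes called higher was 9.89% at 3 months and 6.39% at 12 months, and called lower 12.3% and 4.43%, the background for this list and those that follow. At 12 months none of the 7 was called by limma (1 at an unadjusted p under 0.05), with H2-K1 at 0.36 (adjusted p = 0.0830) and H2-D1 at 0.27 (adjusted p = 0.292). Heavy chain genes are close copies of each other, so probes may read more than 1 of them, and 1 of the 5 other tested probe sets of H2-D1 had the opposite sign. None of 11 loading chaperones and trimming enzymes passed limma at either age, with list medians of 0.07 and -0.09 and an unadjusted p under 0.05 for 1 gene at 3 months and 2 at 12 months.

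No gene of the standard proteasome was called higher at either age. Of 14 core particle genes, Psma5 fell at 3 months (-0.49 ± 0.13, adjusted p = 0.0137) and Psmb1 at 12 months (-0.38 ± 0.12, adjusted p = 0.0420), with list medians of 0.09 and -0.10. At 3 months the 1 other tested probe set of Psma5 had the opposite sign. Of the 2 other tested probe sets of Psmb1, 0 had the opposite sign at 12 months. Both did at 3 months, where Psmb1 was not called (0.07). Of 20 regulatory particle genes 4 fell at 3 months and 2 at 12 months, and none rose. Among them were the lid subunits Psmd11 (-0.61 ± 0.14, adjusted p = 0.00585), Psmd12 (-0.49 ± 0.12, adjusted p = 0.00891) and Psmd7 (-0.66 ± 0.17, adjusted p = 0.00945) at 3 months, and the ATPase Psmc1 (-0.52 ± 0.13, adjusted p = 0.0170) at 12 months. At 12 months Psmd11 and Psmd7 each differed by 0.05 and Psmd12 by -0.21, and none of them passed (adjusted p = 0.866, 0.895 and 0.315). Psmc2, not among the 4 of smallest p, fell at both ages (-0.40, adjusted p = 0.0324, and -0.43, adjusted p = 0.0378). No gene of these lists passed limma at either age with the session as a block (1 core and 2 regulatory genes at an unadjusted p under 0.05 at 3 months, 0 at 12 months). Of 8 other activators and assembly factors none passed limma at either age, and 2 had an unadjusted p under 0.05 at each.

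Of 19 tested genes of interferon gamma signalling and class I regulation, 2 rose and 1 fell at 3 months, with a list median of 0.30; 9.89% of all tested genes were called higher and 12.3% lower. Blocked by session, 1 gene of the list passed at 3 months, Irf2 (2.31, adjusted p = 0.000464), and 0 passed limma at 12 months (0 at an unadjusted p under 0.05). The receptor chain Ifngr1 rose by 1.54 ± 0.46 (adjusted p = 0.0249) and the transcription factor Irf2 by 0.91 ± 0.30 (adjusted p = 0.0413), while Rfxank, a regulator of MHC genes, fell by 0.63 ± 0.22 (adjusted p = 0.0482). At 12 months only Ptpn2, a phosphatase that acts against this signal, rose (1.18 ± 0.26, adjusted p = 0.00678), and its 1 other tested probe set had the opposite sign. Of 11 ubiquitin-like modifiers and partners of Ubd, 2 rose at 3 months: Usp18 (1.22 ± 0.27, adjusted p = 0.00395) and Uba7 (0.68 ± 0.21, adjusted p = 0.0293), which remove and attach the modifier Isg15. Neither passed with the session as a block (adjusted p = 0.461 and 0.728). Usp18 averaged 52.7 in Het_3M and 48.1 in Het_12M. It was thus bright enough to be tested only through knockout arrays, which favours a rise. The 1 other tested probe set of Uba7 had the opposite sign at both ages. None of the 11 genes passed limma at 12 months, where 2 had an unadjusted p under 0.05.

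Of 11 tested genes known to be induced by interferon gamma, other than the members, 7 rose at 3 months and 2 at 12 months, with list medians of 1.22 and 0.35, against 9.89% and 6.39% of all tested genes called higher. Blocked by session, 3 and 1 of them were called. Cd74, the invariant chain of class II, rose by 1.57 ± 0.15 (adjusted p = 2.02e-06) and 0.98 ± 0.15 (adjusted p = 0.000308). Ifi30, a lysosomal reductase of antigen processing, rose by 1.30 ± 0.16 (adjusted p = 4.11e-05) and 0.62 ± 0.16 (adjusted p = 0.0196). The GTPase Igtp rose by 1.54 ± 0.26 at 3 months (adjusted p = 0.000529) and differed by 0.12 at 12 months (adjusted p = 0.833). The chemokine Cxcl9, which draws T cells, rose by 2.08 ± 0.37 at 3 months (adjusted p = 0.00102) and differed by 0.57 at 12 months (adjusted p = 0.382). At 3 months the calls of Cd74 (2.10, adjusted p = 0.000323), Ifi30 (1.47, adjusted p = 0.0177) and Cxcl9 (3.57, adjusted p = 0.00247) held with the block, and that of Igtp did not (1.90, adjusted p = 0.0528).

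Markers of other liver cells moved with the genotypes as well. Of 10 tested macrophage markers 8 rose and 1 fell at 3 months, and 6 rose at 12 months, where 9.89% and 6.39% of all tested genes were called higher and 12.3% lower at 3 months. The summed signal of the 11 measured was 2274 to 2579 in Het_3M and 4584 to 7768 in KO_3M, then 2584 to 2961 in Het_12M and 4891 to 5467 in KO_12M. All 3 tested cholangiocyte markers rose at 3 months and 1 of the 3 at 12 months. Of these, Krt23 averaged 12.5 in Het_3M and 17.1 in Het_12M, and Epcam 12.4 and 14.0. Both were thus bright enough to be tested only through knockout arrays, which favours a rise. The sum of the 6 measured cholangiocyte markers was 217 to 270, 637 to 731, 153 to 209 and 500 to 805 in the same order of groups. Of 7 stellate cell and fibroblast markers 4 rose at 3 months and 3 at 12 months, and the sum of the 8 measured was 1256 to 1334, 2795 to 3411, 1265 to 1704 and 2485 to 2883. The same fit with the session as a block called higher 4 and 1 of the macrophage markers, 1 and 1 of the cholangiocyte markers and 3 and 1 of the stellate markers at 3 and 12 months. The part of these cells in the rise of the members was not tested.

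Of 4 tested T and natural killer cell markers none was called higher and 1 fell at 3 months, and the sum of the 11 measured was 415 to 520 in Het_3M, 221 to 422 in KO_3M, 357 to 493 in Het_12M and 338 to 443 in KO_12M. For B and plasma cells the sum was 252 to 293, 257 to 307, 294 to 420 and 359 to 776, for dendritic cells 207 to 289, 221 to 256, 177 to 258 and 238 to 370, and for neutrophils 323 to 381, 249 to 290, 319 to 400 and 302 to 511. Endothelial markers summed to 776 to 817, 804 to 982, 703 to 847 and 868 to 954. All 10 measured hepatocyte markers were above the array median on every array, as the label liver calls for, and summed to 55247 to 58501, 52165 to 59138, 52779 to 58217 and 32597 to 50752. Of the 10 hepatocyte markers 1 rose (Pck1, 1.52, adjusted p = 2.3e-07) and 2 fell at 3 months, and 3 fell at 12 months; with the session as a block 3 rose at 3 months and none fell at either age. No marker of any list was under the 10th percentile of the signals on all 12 arrays. The share of these cells in the results was not tested either.

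Across the 12 arrays, which fall into 4 groups and share scan sessions, the members followed each other. Pearson's r of log2 signal between 2 members ran from 0.38 to 0.97 with a median of 0.80 over the 36 pairs, all positive. After the group means were removed it ran from -0.38 to 0.79 with a median of 0.30, and 30 of the 36 were positive. The array order within a group was part of this: mouse 3 of KO_3M was the highest of its group for 7 of the 9 members, and mouse 1 the lowest for 7.

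The genes outside the set whose pattern over the 12 arrays was most like the mean of the members were Vnn3 (r = 0.946), Slc39a4 (0.944), Rbm43 (0.941), Igtp (0.940) and Dst (0.932). Slc39a4, a zinc importer, averaged 1001 ± 221 in KO_3M against 261 ± 32.9 in Het_3M, and 495 ± 79.0 in KO_12M against 242 ± 54.8 in Het_12M (SD, n = 3). Most like Ubd were Bst2 (r = 0.975), Dst (0.961), Plac8 (0.960), Ost4 (0.943) and Rras (0.942). Bst2, the antiviral protein tetherin, averaged 597 ± 174 against 242 ± 34.8 and 402 ± 37.0 against 208 ± 16.5 in the same order. These genes were picked for their likeness, and the values describe it.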

How the data were processed

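The deposited intensity values were extracted by the authors with MAS 5.0 software and are linear in brightness, per the series design text. Trimmed means (2 to 98%) of all arrays were 149.98, so the authors had scaled them; any further filter is not given in the sources used here. All columns were mapped. Experiment descriptions stored with the arrays gave the sessions. Precision is limited by the 12 arrays.

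Symbols came from the platform table and were updated by gene ID through RefSeq for GRCm38.p6. Of a gene's probe sets the one of highest mean log2 signal was used, and the gene was tested when at least 3 of 12 arrays reached their array's median. Tests used limma 3.58.1 under R 4.3.3 (lmFit, eBayes with trend) on log2(signal + 16), with 12 arrays, 4 group means and 8 residual degrees of freedom, and Benjamini-Hochberg adjustment over 8217 genes; adjusted p values are limma's. The fit was checked on simulated data. Scan sessions were split at gaps of over 30 minutes. Alternatives were other offsets (4, 64), scalings, filters, probe set rules, blocks, a covariate, and arrays left out; those without both arrays of another wash script, or with a fluidics error, were chosen after seeing the data. The series design text also names cluster analysis, which was not repeated, and fold change filtering, tried as a 2-fold filter. Named genes were the members, Abcb4, standard counterparts, up to 4 called members of each list with the smallest p and the called member of smallest p the other way, and the 5 genes most like the members and most like Ubd. The members and lists were chosen with earlier results of these data known. Python 3.11.15 with pandas 2.3.3, numpy 2.4.6, scipy 1.17.1 and matplotlib 3.10.9 made tables and figures.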

Additional observations from a re-analysis of the deposited data

Results flagged for a closer look

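For Psmb9 the test of the difference in knockout effect between the ages passed in the fit reported above, with an interaction of -1.40 ± 0.32 (limma adjusted p = 0.0456), with a rise of 2.18 at 3 months and 0.78 at 12 months. The call was lost with the session as a block (-1.27, adjusted p = 0.226) and when any 1 of 11 of the 12 arrays was left out (adjusted p from 0.0589 to 0.117). For the Tap1 probe set 1449803_x_at the effect differed the opposite way, with an interaction of 1.79 ± 0.31 over all tested probe sets (adjusted p = 0.0165): it fell by 2.32 at 3 months and differed by -0.53 at 12 months. Its KO_3M signals of 4.5, 9.9 and 5.7 lay near the 10th percentile of those arrays, 4.1 to 4.8, so the size of this interaction depends on the offset.

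The probe set 1417189_at, annotated to both Psme2b and Psme2 and used in no comparison, gave 361.7, 358.4 and 370.7 in Het_3M and 478.0, 642.6 and 759.2 in KO_3M. It was 0.74 higher in KO_3M on the log2 scale, without overlap, a difference that was not tested. Its 12-month signals, 258.6, 309.6 and 276.4 for Het_12M and 340.0, 528.0 and 309.1 for KO_12M, overlap.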

How the results depend on the processing

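Numbers of members called, of 9 (8 at 3 months, 3 at 12 months, 0 between the heterozygous ages, 7 between the knockout ages and 1 for the interaction), changed with these settings. With the session as a block they were 2 at 3 months, 0 at 12 months and 0 for the interaction. The blocked comparisons between ages set 3 mice against 1 and are left out. With the actin 3' to 5' ratio as a covariate the numbers were 5, 2, 0, 0 and 2. Between the knockout ages quantile normalization gave 4, only the groups compared 3 and the 2-fold filter 4; the 2-fold filter gave 1 between the heterozygous ages. The interaction gave 0 with an offset of 4, quantile normalization, no filter, the mean of probe sets, every probe set on its own, no intensity trend, a random session block and without the arrays with a fluidics error. It gave 2 with median scaling, the stricter filter (7 members tested) and without the arrays of conflicting age, 3 with an offset of 64 and without the arrays of the other wash script, and 4 with the 2-fold filter. Where the interaction gave 0, limma's unadjusted p was under 0.05 for 3 to 6 members. Leaving out 1 array gave 7 to 9, 2 to 3, 0 to 0, 3 to 8 and 0 to 3; the cause was not tested.

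Mouse numbers did not pair the arrays: deviations from group means correlated from -0.199 to 0.179 over 18 same-number pairs, 1 of them over 0.1, and 3 of 12 arrays correlated best with their own number. With the mouse number as a replicate block the counts were 8, 3, 0, 7 and 0.

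Tap1 reversed with an offset of 64 (-1.19 at 3 months, -0.37 at 12 months, 1.04 between the knockout ages, 0.82 for the interaction) and as a mean of probe sets (-0.76, -0.12, 0.69 and 0.64), since other probe sets then enter. Values near 0 reversed for B2m at 12 months with quantile normalization (0.10) and for Tapbp at 12 months with median scaling (-0.030), the actin ratio (-0.068) and without Het_12M mouse 3 (-0.044) or KO_12M mouse 1 (-0.02). Median scaling moved the median of all genes from -0.06 to 0.11 at 3 months, from 0.08 to -0.22 between the knockout ages and from 0.06 to -0.19 for the interaction. The Psmb10 minus Psmb7 excess no longer passed with an offset of 64 (0.17, exact p = 0.060), quantile normalization (0.10, exact p = 0.245) or without the arrays of conflicting age (0.23, exact p = 0.050). Leaving out 1 array gave 0.17 to 0.27 for it, 1.5 to 1.82 for Psmb8 minus Psmb5 and 1.56 to 1.88 for Psmb9 minus Psmb6. Of the single-gene values under alternatives, 967 kept direction and side of the threshold, 93 lost the call, 20 gained one and 13 reversed. Dim signals limit Tap1, Tap2 and Ubd.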
